A study of Mus musculus with 6 samples.

Results

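The 10 heat shock genes described here are Hsf1, Hspa1a, Hspa1b, Hspa8, Hsph1, Hsp90aa1, Hsp90ab1, Dnajb1, Hspb1 and Hspd1. They were taken by gene symbol from an RNA-seq table of 17924 genes, and all 10 were listed and tested. The RNA came from 3 control (CTL) and 3 Nelfb-depleted (Nelfb-/-) cultures of dermal fibroblasts from the dorsal skin of newborn (P0) C57BL/6J mice, kept for 14 days in medium that induces adipocyte differentiation. CTL mice carried Nelfb fl/wt or Nelfb wt/wt with Pdgfra-Cre, and Nelfb-/- mice carried Nelfb fl/fl with Pdgfra-Cre, so that both groups carried the Cre transgene. Pdgfra-Cre acts in the preadipocyte and fibroblast lineage, so that other cells of the dermis may keep Nelfb. Which of the 2 control genotypes each CTL library had is not given in the labels. The methods call the libraries of each group biological triplicates, without saying whether each came from a separate mouse, and the p-values measure the spread between these libraries. No heat treatment is named for any sample.

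Heat shock proteins are chaperones that hold, fold and refold other proteins. The transcription factor Hsf1 switches on their genes when unfolded proteins accumulate, by binding heat shock elements, which are repeats of the letters GAA and TTC in alternation. Genes of this group were among the first at which RNA polymerase II was found to wait just after the start site, and NELF, the complex to which Nelfb belongs, is one of the factors that hold it there. RNA-seq counts transcripts and not polymerase, so that whether these promoters were paused in these cells was not measured.

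Nelfb, the deleted gene, was at 17.3, 19.6 and 22.3 reads per 1000000 (CPM) in CTL and at 5.50, 3.90 and 5.55 CPM in Nelfb-/- libraries. The groups did not overlap, and Nelfb fell by 1.99 on the log2 scale (SE 0.22, adjusted p = 0.0050, limma). The labels call all 6 samples adipocytes. The adipocyte marker Adipoq was at 1768, 1857 and 698 CPM in CTL libraries and at 488, 802 and 630 CPM in Nelfb-/- libraries, and Plin1, which coats lipid droplets, at 1154, 1196 and 782 CPM against 286, 710 and 634 CPM. Neither passed the test (adjusted p = 0.14 and 0.12). Of 14 adipocyte markers, 11 were lower and 3 higher in Nelfb-/- libraries, and 2 passed the test, of which Retn fell (log2 fold change -2.12, adjusted p = 0.013) and Lep rose (5.26, adjusted p = 0.014). Lep, which encodes leptin, was at 0.18, 0.37 and 2.04 CPM in CTL libraries and at 10.3, 32.4 and 33.0 CPM in Nelfb-/- libraries. Other cell types differed between the groups. Of 12 macrophage markers, 11 rose, and their summed level was 237 to 830 CPM in CTL and 2325 to 7321 CPM in Nelfb-/- libraries. Adgre1, the F4/80 antigen of macrophages, was at 29.3, 17.3 and 9.55 CPM in CTL libraries and at 223, 80.1 and 124 CPM in Nelfb-/- libraries. All 7 skeletal muscle markers tested rose, with sums of 9.73 to 11.7 CPM and 59.4 to 112 CPM. Dlk1, a preadipocyte gene, was at 53.9, 48.0 and 232 CPM in CTL libraries and at 661, 1115 and 898 CPM in Nelfb-/- libraries, and it rose by 3.37 on the log2 scale (SE 0.61, adjusted p = 0.017, limma). Pdgfra, the gene whose promoter drives the Cre, was at 317, 219 and 444 CPM against 476, 499 and 509 CPM (adjusted p = 0.145). In bulk RNA, more cells of a type and more RNA per cell cannot be told apart. The part of these cell types in the results below was not tested.

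Of the 10 heat shock genes, 5 rose in Nelfb-/- cells at an adjusted p up to 0.05 and 0 fell, where 9.96% of the 16251 genes tested rose and 5.83% fell. The 5 were Hspa1b, Hspb1, Dnajb1, Hsp90aa1 and Hsph1. By limma without adjustment, 1 gene, Hspd1, was lower with a p of at most 0.05. Hspa1b and Hspb1 also changed at least 2-fold, so that 2 of 10 passed both limits, where 7.58% of all genes tested did so upward and 3.64% downward. For 5 genes all Nelfb-/- libraries lay above all CTL libraries (22.0% of all genes tested) and for 2 below them (16.1%), and the groups overlapped for 3. The 5 others were Hsf1 itself, Hspa1a, the constitutive Hspa8 and Hsp90ab1, and mitochondrial Hspd1. The median log2 fold change was 0.44 over the 10 genes and 0.07 over all genes tested. Summed, the 5 genes that rose were at 428, 477 and 488 CPM in CTL libraries and at 904, 1073 and 1000.4 CPM in Nelfb-/- libraries. The 5 others summed to 2299, 2208 and 2291 CPM in CTL and to 1928, 2182 and 2123 CPM in Nelfb-/- libraries. The 2 sets were split by their calls in these same libraries, so that the sums give levels and no separate evidence of a rise. All 10 together took 0.27% to 0.28% of the reads in CTL and 0.28% to 0.33% in Nelfb-/- libraries.

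**Figure D1:**
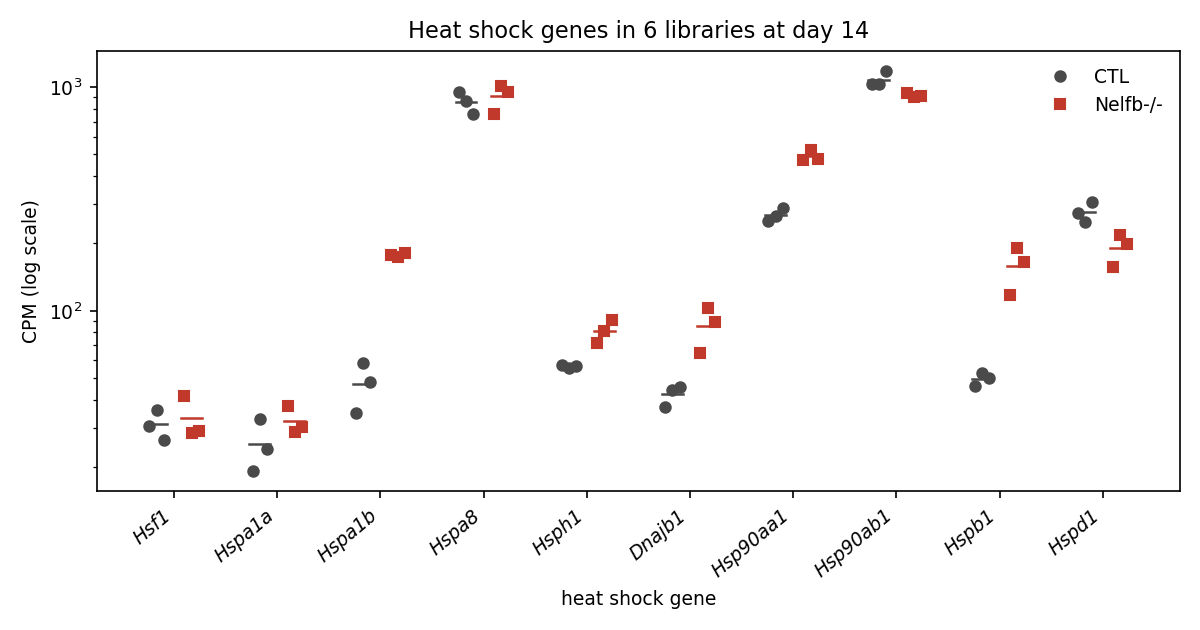
CPM (log axis) of each of the 10 heat shock genes in the 3 CTL libraries (grey circles, in the order CTL1 to CTL3) and the 3 Nelfb-/- libraries (red squares, KO1 to KO3), with a line at each group's mean. All 3 Nelfb-/- libraries lie above all 3 CTL libraries for Hspa1b, Hsph1, Dnajb1, Hsp90aa1 and Hspb1, and below them for Hsp90ab1 and Hspd1.

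The heat shock elements of these genes are shown first, since their promoters are what the group is known for. RefSeq windows from 250 bases before to 50 bases after a start (GRCm38.p6) were found for 6 of the 10 genes, namely Hspa1a, Hspa1b, Hsph1, Dnajb1, Hspb1 and Hspd1. Hsf1, Hspa8, Hsp90aa1 and Hsp90ab1 had no window. The letters GAANNTTC or TTCNNGAA, which are 2 units of a heat shock element and cover both strands, occur in 15.1% of all 32544 windows of 300 bases. The 3-unit form, GAANNTTCNNGAA or TTCNNGAANNTTC, occurs in 0.608% of them. A 3-unit match holds 2-unit matches. The 250 bases before the start are printed 5′ to 3′ for the near-identical Hspa1a (chr17:34972157-34972406, minus strand) and Hspa1b (chr17:34959239-34959488, minus strand), of which Hspa1b rose and Hspa1a did not pass the test, and for Hspb1 (chr5:135887669-135887918, plus strand), the other gene past both limits. Capitals mark the 2-unit heat shock elements.
Hspa1a: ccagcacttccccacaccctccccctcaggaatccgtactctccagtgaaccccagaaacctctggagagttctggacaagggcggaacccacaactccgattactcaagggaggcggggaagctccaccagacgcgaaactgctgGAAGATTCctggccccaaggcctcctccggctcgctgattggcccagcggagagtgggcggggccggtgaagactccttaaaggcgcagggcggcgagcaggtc
Hspa1b: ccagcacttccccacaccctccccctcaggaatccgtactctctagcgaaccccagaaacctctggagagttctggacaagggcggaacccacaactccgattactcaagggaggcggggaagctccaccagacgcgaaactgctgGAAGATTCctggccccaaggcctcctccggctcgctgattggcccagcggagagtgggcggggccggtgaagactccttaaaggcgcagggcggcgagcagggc
Hspb1: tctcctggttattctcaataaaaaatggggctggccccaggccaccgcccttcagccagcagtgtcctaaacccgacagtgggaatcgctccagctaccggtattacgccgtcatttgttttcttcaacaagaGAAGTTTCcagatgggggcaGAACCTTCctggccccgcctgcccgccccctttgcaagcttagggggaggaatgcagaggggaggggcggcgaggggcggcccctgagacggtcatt

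The Hspa1a and Hspa1b stretches were 98.8% identical and differed at 3 of 250 positions. Counted from 1 at the 5′ end of the stretch, with the Hspa1a base first, the differences were C44T, T47C and T249G. Both held the same 2-unit element, with its first base 104 bases before the start, and the same 3 matches to GGGCGG or CCGCCC, the GC box, which occurs in 35.9% of windows. Both also held 1 match to CCAAT or ATTGG (37.4% of windows) and none to TATAAA or TTTATA (13.6% of windows). The window of Hspb1 held 2 such elements, which begin 117 and 97 bases before the start, and no 3-unit match. For Hspa1a and Hspa1b, the matches to these motifs were thus the same in number and in distance from the start.

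A 3-unit element was found near the starts of Hspd1 and Hsph1. It is shown with its flanks as 30 bases on the minus strand, for Hspd1 at chr1:55088053-55088082 and for Hsph1 at chr5:149636279-149636308. Capitals mark the 3-unit elements, of which 2 overlap in Hspd1.
Hspd1: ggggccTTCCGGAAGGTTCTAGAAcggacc
Hsph1: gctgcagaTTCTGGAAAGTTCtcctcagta
In Hspd1 the run begins 144 bases before one of the 2 RefSeq starts, and in Hsph1 it begins 15 bases after one of the 2 starts. Neither window of Dnajb1 held a 2-unit or 3-unit match. These matches describe letters and no binding. Of the 6 genes with a window, Hspa1b, Hspb1 and Hsph1 held a match and rose, and Dnajb1 held none and rose. Hspa1a and Hspd1, which held the longest run, had a match and did not pass the test. Whether the matches bear on the changes was not tested.

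Hsf1 (ENSMUSG00000022556, chr15:76477422-76501913, plus strand, protein coding), the regulator, was at 30.7, 36.2 and 26.4 CPM in CTL libraries and at 41.8, 28.4 and 29.1 CPM in Nelfb-/- libraries. The groups overlapped, with the highest value in KO1. The log2 fold change was 0.08 (SE 0.21, 95% interval -0.42 to 0.58, adjusted p = 0.83, limma), so that the interval ran from 0.748-fold to 1.49-fold. Its sign was negative under 4 alternatives, with a value of -0.023 under quantile normalization. The related factors and binding partners did not pass the test either: of 4 tested genes of a list of HSF family and HSF1 control genes, 0 passed by limma, and 1 had an unadjusted p of at most 0.05. That 1 was Hsbp1, which binds the trimer domain of Hsf1, at 89.3, 83.6 and 89.2 CPM in CTL libraries and at 96.5, 122 and 127 CPM in Nelfb-/- libraries (log2 fold change 0.39, SE 0.15, adjusted p = 0.12). Hsf2bp, a partner of Hsf2, was at 0.18, 0.42 and 0.44 CPM against 0.66, 0.64 and 0.78 CPM (adjusted p = 0.18).

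Hspa1b and Hspa1a encode the stress-inducible HSP70 and lie beside each other on chromosome 17. Hspa1b (ENSMUSG00000090877, chr17:34956436-34959238, minus strand) was at 35.1, 58.4 and 47.9 CPM in CTL libraries and at 177, 175 and 181 CPM in Nelfb-/- libraries. The Nelfb-/- values lay close together, and all were above all CTL values. Hspa1b rose by 1.94 on the log2 scale (SE 0.20, 95% interval 1.47 to 2.42, adjusted p = 0.0042, limma), or 3.85-fold. Hspa1b varied 1.66-fold among the CTL and 1.04-fold among the Nelfb-/- libraries, and the macrophage marker sum 3.51-fold and 3.15-fold. The part of macrophages in the rise of Hspa1b was not tested. Hspa1a (ENSMUSG00000091971, chr17:34969190-34972156, minus strand) was at 19.2, 32.9 and 24.1 CPM in CTL libraries and at 37.4, 28.7 and 30.2 CPM in Nelfb-/- libraries. The groups overlapped through CTL2, and Hspa1a did not pass the test (log2 fold change 0.36, SE 0.23, 95% interval -0.19 to 0.91, adjusted p = 0.33).

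The ratio of Hspa1b to Hspa1a was therefore followed in each library, a ratio chosen after the values were seen. It was 1.83, 1.77 and 1.99 in CTL and 4.75, 6.08 and 5.99 in Nelfb-/- libraries. The groups were apart, with means of 1.86 ± 0.11 (SD, n = 3) and 5.61 ± 0.74 (SD, n = 3). Being a ratio within a library, it does not depend on the scaling between libraries. The exact two-sided permutation test gave p = 0.1, the smallest that 3 against 3 libraries allow. Reads of the pair cannot always be told apart: 60.3% of all 50-base words of the Hspa1a transcript and 62.3% of those of Hspa1b also occurred in other genes. In the coding part, 82.3% of the words of Hspa1a were shared with Hspa1b, before it 57.7% and after the stop codon 0%. How reads in the shared parts were split between the genes is not given in the sources used here. Summed, the pair was at 54.3, 91.3 and 72.1 CPM in CTL libraries and at 215, 203 and 211 CPM in Nelfb-/- libraries. The sum rose by 1.56 on the log2 scale (SE 0.20, adjusted p = 0.0073, limma), or 2.96-fold, and it does not rest on the split within the pair.

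**Figure D2:**
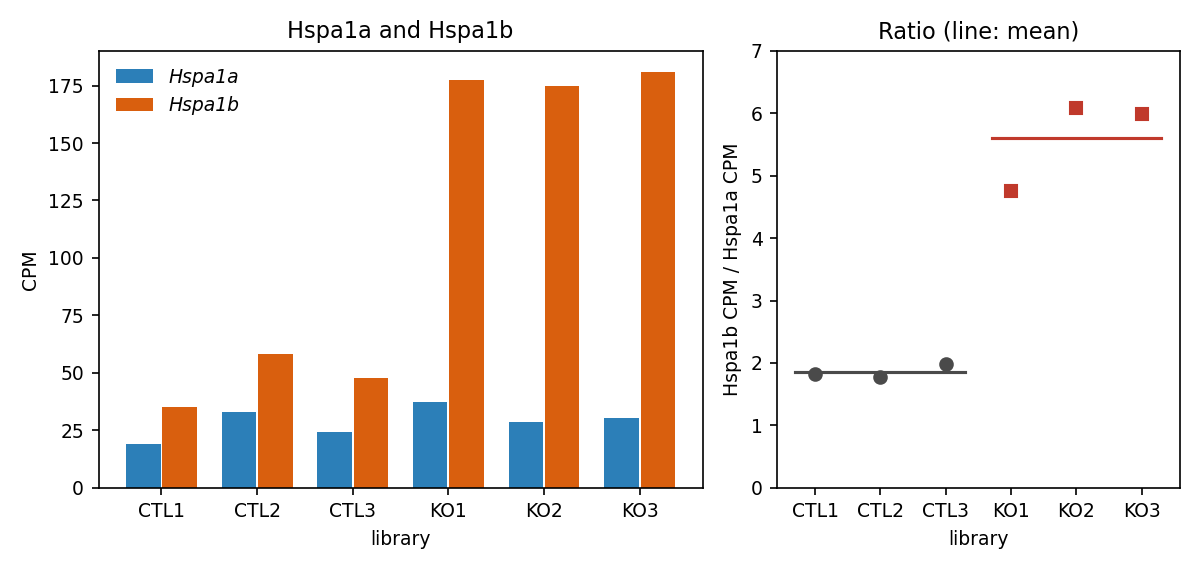
Left, CPM of Hspa1a (blue) and Hspa1b (orange) in each of the 6 libraries, as bars from 0. Right, the ratio of Hspa1b to Hspa1a in each CTL (circle) and Nelfb-/- (square) library with the group means as lines, 1.86 in CTL and 5.61 in Nelfb-/- libraries.

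Hspa8 (ENSMUSG00000015656, chr9:40800984-40810087, plus strand), the constitutive HSP70 of unstressed cells, was at 951, 862 and 753 CPM in CTL libraries and at 756, 1008 and 954 CPM in Nelfb-/- libraries. The groups overlapped, with CTL3 and KO1 the lowest. The log2 fold change was 0.08 (SE 0.21, 95% interval -0.42 to 0.58, adjusted p = 0.83, limma), and its sign turned without CTL3 or KO2. Among the transcript's 50-base words, 73.2% occurred in other genes, and the pseudogene Gm15459 was listed at 92.9% to 97.9% of the level of Hspa8. With 5 such copies summed in, the log2 fold change stayed at 0.08. The ratio of inducible HSP70 (Hspa1a plus Hspa1b) to Hspa8 was 0.057, 0.106 and 0.096 in CTL and 0.284, 0.202 and 0.222 in Nelfb-/- libraries. The groups were apart by 1.49 on the log2 scale, with the smallest p that the exact permutation test allows (0.1).

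Hsph1 and Dnajb1 act on HSP70. Hsph1 (ENSMUSG00000029657, chr5:149614287-149636376, minus strand), an HSP110 that exchanges the nucleotide of HSP70, was at 57.3, 55.6 and 56.7 CPM in CTL libraries and at 71.7, 81.6 and 90.5 CPM in Nelfb-/- libraries. The groups did not overlap, and Hsph1 rose by 0.52 on the log2 scale (SE 0.13, 95% interval 0.20 to 0.83, adjusted p = 0.045, limma). This call was lost under 9 of 15 alternatives, with adjusted p up to 0.19, among them median-of-ratios size factors (0.068) and quantile normalization (0.081). Leaving out CTL1, CTL2, CTL3, KO2 or KO3 also ended it (adjusted p = 0.14, 0.16, 0.053, 0.13 and 0.19). Dnajb1 (ENSMUSG00000005483, chr8:83608193-83612653, plus strand), the J-domain protein that delivers clients to HSP70, was at 37.1, 44.3 and 45.8 CPM in CTL libraries and at 65.0, 103 and 89.4 CPM in Nelfb-/- libraries. Its groups did not overlap either, and it rose by 0.99 on the log2 scale (SE 0.20, 95% interval 0.51 to 1.48, adjusted p = 0.023, limma), 1.99-fold and so just under the fold limit. The call was lost without CTL1, CTL2, KO2 or KO3 (adjusted p = 0.089, 0.078, 0.072 and 0.10). The ratio of Dnajb1 to Hspa8 was 0.039, 0.051 and 0.061 in CTL and 0.086, 0.102 and 0.094 in Nelfb-/- libraries, again apart (exact permutation p = 0.1, the smallest possible).

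HSP90 completes the folding of kinases and steroid receptors and has 2 cytosolic genes. Hsp90aa1 (ENSMUSG00000021270, chr12:110690605-110702728, minus strand), the inducible form, was at 252, 266 and 287 CPM in CTL libraries and at 471, 523 and 475 CPM in Nelfb-/- libraries. The groups were well apart, and Hsp90aa1 rose by 0.87 on the log2 scale (SE 0.14, 95% interval 0.53 to 1.21, adjusted p = 0.013, limma), or 1.82-fold. Without CTL1, CTL2, KO2 or KO3 the adjusted p was 0.067, 0.066, 0.056 and 0.071. Hsp90ab1 (ENSMUSG00000023944, chr17:45567775-45573271, minus strand), the constitutive form, was at 1026, 1028 and 1180.2 CPM in CTL libraries and at 936, 899 and 912 CPM in Nelfb-/- libraries. All Nelfb-/- values lay below all CTL values, as was so for 16.1% of all genes tested, and the difference did not pass the test (log2 fold change -0.23, SE 0.18, 95% interval -0.67 to 0.20, adjusted p = 0.42). The ratio of Hsp90aa1 to Hsp90ab1 was 0.246, 0.259 and 0.243 in CTL and 0.503, 0.581 and 0.521 in Nelfb-/- libraries. It was 2.14-fold higher in Nelfb-/- libraries with little spread in either group (exact permutation p = 0.1, the smallest possible). Of the 50-base words of Hsp90aa1, 58.5% occurred in other genes, mostly the pseudogene Gm12346, which was listed at 53.8% to 58.3% of its level. With its 3 copies summed in, Hsp90aa1 rose by 0.84 (SE 0.16, adjusted p = 0.019, limma). Only 4.49% of the words of Hsp90ab1 were shared.

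Hspb1 (ENSMUSG00000004951, chr5:135887919-135889563, plus strand), the small heat shock protein HSP25 of the mouse, holds unfolded proteins without ATP and binds actin. It was at 46.1, 52.7 and 50.2 CPM in CTL libraries and at 118, 191 and 164 CPM in Nelfb-/- libraries. The groups did not overlap, with KO1 the lowest of the Nelfb-/- libraries, and Hspb1 rose by 1.64 on the log2 scale (SE 0.20, 95% interval 1.17 to 2.12, adjusted p = 0.0060, limma), or 3.12-fold. Among the Nelfb-/- libraries, KO1 held the highest sums of macrophage (7321 CPM), skeletal muscle (112 CPM), endothelial (22.8 CPM) and melanocyte markers (168 CPM). It held the lowest sums of adipocyte (20633), preadipocyte or fibroblast (9118), keratinocyte (8.34), smooth muscle (598) and cycling cell markers (68.8 CPM). The part of these cell types in the values of Hspb1 was not tested. The pseudogene Hsp25-ps1 shared 86.6% of the words in the coding part of Hspb1 and 0% of those before or after it, and it was listed at 93.9% to 114% of the level of Hspb1. The sum of both was 98.5, 109 and 97.4 CPM in CTL libraries and at 244, 396 and 335 CPM in Nelfb-/- libraries. It rose by 1.65 on the log2 scale (SE 0.20, adjusted p = 0.0061, limma).

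Hspd1 (ENSMUSG00000025980, chr1:55077835-55088243, minus strand) encodes HSP60, which folds proteins in the mitochondrial matrix with its lid Hspe1, and the 2 genes share a promoter and run in opposite directions. Hspd1 was at 272, 249 and 307 CPM in CTL libraries and at 156, 217 and 199 CPM in Nelfb-/- libraries. All Nelfb-/- values lay below all CTL values, but the log2 fold change of -0.54 (SE 0.18, 95% interval -0.96 to -0.12) did not pass the test (adjusted p = 0.085, limma). Hspe1 (ENSMUSG00000073676, chr1:55088132-55091307, plus strand) was at 57.5, 59.8 and 71.5 CPM in CTL libraries and at 42.6, 63.1 and 53.0 CPM in Nelfb-/- libraries, with overlapping groups (log2 fold change -0.26, adjusted p = 0.37). The annotated genes overlap by 112 bases, and strand-specific counting is not given in the sources used here. The ratio of Hspd1 to Hspe1 was 4.74, 4.16 and 4.29 in CTL and 3.67, 3.44 and 3.75 in Nelfb-/- libraries, apart by -0.28 on the log2 scale (exact permutation p = 0.1, the smallest possible). The pseudogene Hspd1-ps3 shared 42.8% of the words of Hspd1, and with it summed in the log2 fold change was -0.54 (adjusted p = 0.093).

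**Figure D3:**
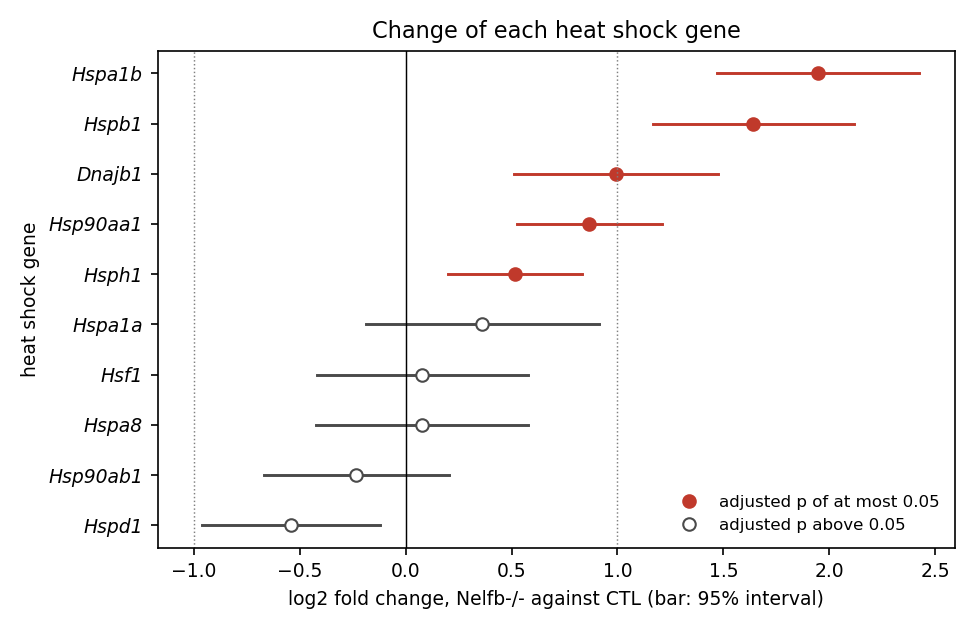
Log2 fold change of each heat shock gene in Nelfb-/- against CTL libraries with its 95% interval, from limma over all genes. Filled red points have an adjusted p of at most 0.05, open points do not, and dotted lines mark a 2-fold change. Hspa1b (1.94) and Hspb1 (1.64) lie beyond the 2-fold line, and the intervals of Hsf1 and Hspa8 reach from -0.42 to 0.58.

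Per 1000 bases of transcript, the scale on which levels of different genes can be compared, the constitutive genes led in CTL. Hsp90ab1 was at 428 ± 35.1 and Hspa8 at 357 ± 41.2 CPM per kb (mean ± SD, n = 3), followed by Hspd1 at 114 ± 11.9, Hsp90aa1 at 81.9 ± 5.37 and Hspb1 at 55.0 ± 3.67. These 5 did not overlap with their neighbours in that order. Hspa1b (16.8 ± 4.16), Hsf1 (14.9 ± 2.36), Hsph1 (14.9 ± 0.22) and Dnajb1 (14.2 ± 1.56) overlapped, and Hspa1a was the lowest at 8.57 ± 2.35 CPM per kb. In Nelfb-/- libraries, Hspa8 (378 ± 55.4) and Hsp90ab1 (363 ± 7.51) overlapped at the top. They were followed by Hspb1 (175 ± 41.0) and Hsp90aa1 (149 ± 8.69), which overlapped, and then by Hspd1 (78.7 ± 12.8) and Hspa1b (63.4 ± 1.15), which also overlapped. Dnajb1 (28.6 ± 6.38), Hsph1 (21.4 ± 2.47) and Hsf1 (15.9 ± 3.61) formed an overlapping run, and Hspa1a was again the lowest at 10.8 ± 1.56 CPM per kb. Where reads were shared with close copies, these levels also depend on how such reads were split.

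The other chaperone genes were taken from 8 lists that did not include the 10. Of 125 genes on these lists, 116 were in the table and 115 were tested. By that limit on adjusted p, 4 rose (3.48% of those tested, where 9.96% of all genes tested rose) and 11 fell (9.57%, where 5.83% of all genes fell). In either direction this was 13.0%, where 15.8% of all genes tested were called. Each of these 15 calls was lost in at least 1 of the 6 fits that left out a library, and all 15 were lost without KO3. The median log2 fold change over them was -0.02. Past both limits, 2 rose and 0 fell by limma (also 0 at an unadjusted p of at most 0.05), where 11.2% of all genes passed both limits in either direction.

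Partners of HSP70 showed single changes. Of 8 other HSP70 and HSP110 genes tested, 1 rose: Hspa12a, a distant HSP70 relative, was at 16.9, 11.5 and 20.4 CPM in CTL libraries and at 28.9, 31.9 and 30.6 CPM in Nelfb-/- libraries (log2 fold change 0.94, SE 0.23, adjusted p = 0.039). Hspa12b, which is known from endothelial cells, did not pass the test (log2 fold change 1.11, adjusted p = 0.10). Endothelial marker sums were 7.31 to 12.0 CPM in CTL and 8.73 to 22.8 CPM in Nelfb-/- libraries. Of 26 J-domain proteins tested, 2 rose and 2 fell. Dnajc6 (auxilin, which works with HSP70 to uncoat clathrin vesicles) was at 0.23, 0.33 and 0.34 CPM against 0.81, 1.22 and 1.14 CPM and rose by 1.68 on the log2 scale (SE 0.38, adjusted p = 0.032). Dnajc12 was at 2.98, 2.52 and 3.20 CPM against 6.40, 6.35 and 6.94 CPM and rose by 1.17 (SE 0.21, adjusted p = 0.016). For both, no Nelfb-/- value overlapped a CTL value. Both calls were lost without CTL1, CTL2, KO2 or KO3, with an adjusted p of 0.113, 0.0941, 0.118 and 0.149 for Dnajc6 and of 0.0624, 0.0680, 0.0608 and 0.0895 for Dnajc12, while the log2 fold changes lay between 1.52 and 1.86 and between 1.08 and 1.25. The median over the J-domain list was 0.03.

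Of 26 cochaperones of HSP70 and HSP90, 1 rose and 1 fell. Rpap3, which brings HSP90 to the assembly of RNA polymerase II, was at 16.1, 17.1 and 15.1 CPM in CTL libraries and at 25.6, 26.2 and 22.2 CPM in Nelfb-/- libraries and rose by 0.61 (SE 0.14, adjusted p = 0.035). Of 8 tested subunits of TRiC, the cytosolic chaperonin that folds actin and tubulin, 0 passed by limma, and 1, Cct3, had an unadjusted p of at most 0.05 (log2 fold change 0.69, adjusted p = 0.078). Next to it in p was Cct8 (log2 fold change 0.22, adjusted p = 0.27).

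Other small heat shock proteins bind unfolded proteins as Hspb1 does. Of 6 tested, 0 rose by limma (also 0 at an unadjusted p of at most 0.05) and 1 fell. Hspb8, which works with the cochaperone Bag3, was at 153, 162 and 92.2 CPM in CTL libraries and at 78.5, 61.7 and 62.3 CPM in Nelfb-/- libraries, and it fell by 0.97 on the log2 scale (SE 0.245, adjusted p = 0.043, limma). Hspb6 was at 32.4, 32.7 and 48.0 CPM against 12.7, 19.7 and 26.1 CPM, without overlap, and did not pass the test (log2 fold change -0.98, adjusted p = 0.074).

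Hspd1 stood beside a list of mitochondrial chaperones and proteases, of which 5 of 16 tested fell and 0 rose by limma (2 at an unadjusted p of at most 0.05), with a median of -0.45. Over all genes tested, 5.83% fell and 9.96% rose. Dnaja3, a mitochondrial J-domain protein, was at 107, 107 and 126 CPM in CTL libraries and at 65.7, 54.1 and 52.6 CPM in Nelfb-/- libraries and fell by 0.98 on the log2 scale (SE 0.15, adjusted p = 0.010, limma). Grpel1, the nucleotide exchange factor of mitochondrial HSP70, was at 114, 115 and 116 CPM against 55.5, 84.6 and 68.7 CPM and fell by 0.74 (SE 0.17, adjusted p = 0.035). The others that fell were Hspa9, which is that HSP70, and Clpb and Clpp, with adjusted p of 0.039, 0.039 and 0.040. Summed, the mitochondrial list was at 2064 to 2497 CPM in CTL and 1421 to 1517 CPM in Nelfb-/- libraries, so that the groups did not overlap, while adipocyte marker sums were 28273 to 46840 CPM in CTL and 20633 to 29234 CPM in Nelfb-/- libraries. Of 21 chaperones and stress genes of the endoplasmic reticulum, 2 fell, 0 rose by limma (1 at an unadjusted p of at most 0.05) and the median was 0.00. Herpud1, which acts in the removal of misfolded proteins, was at 87.4, 79.4 and 96.1 CPM against 41.2, 46.5 and 50.5 CPM and fell by 0.93 (SE 0.14, adjusted p = 0.011). Xbp1, a transcription factor of the unfolded protein response, fell by 0.76 (SE 0.17, adjusted p = 0.033).

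**Figure D4:**
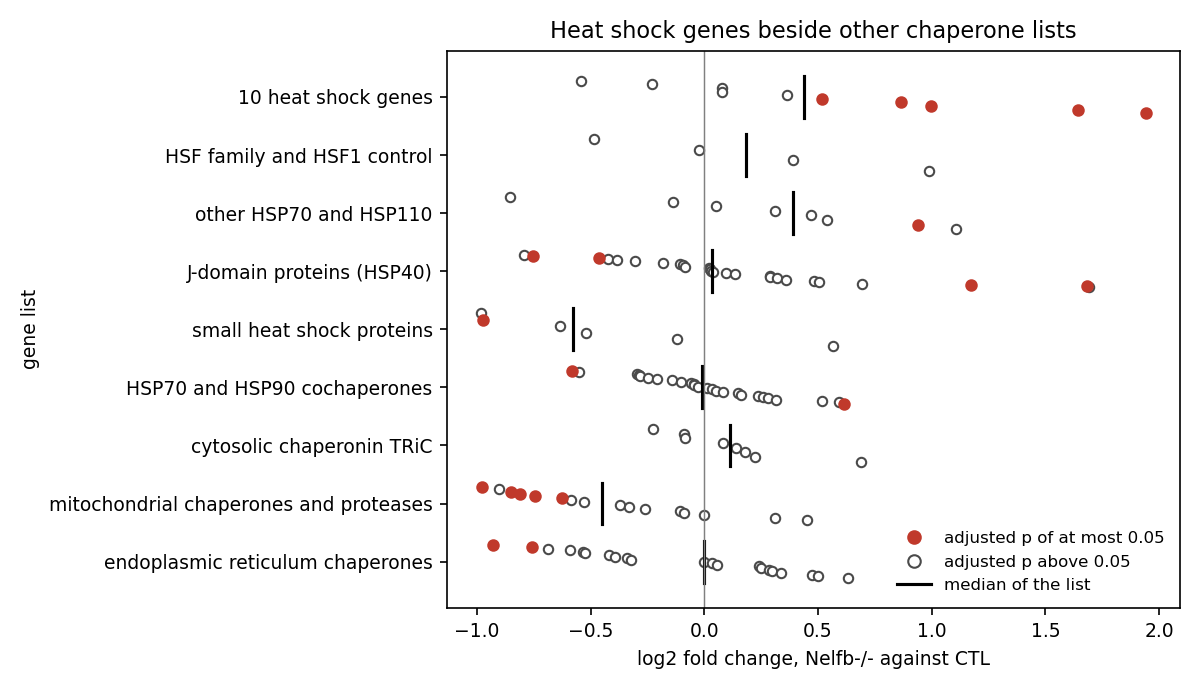
Log2 fold change in Nelfb-/- against CTL libraries of every tested gene in the 10 heat shock genes and in 8 lists of other chaperone genes, 1 point a gene, spread vertically within its list in order of its value. Filled red points have an adjusted p of at most 0.05, and the black bar is the list's median, 0.44 for the 10 heat shock genes and -0.45 for the mitochondrial list.

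Genes that respond to handling of cells were read beside the heat shock genes. Of 15 immediate early genes, 13 were higher in Nelfb-/- libraries (median log2 fold change 0.60, against 0.07 over all genes tested), and 3 rose, where 9.96% of all genes tested did. These were Nr4a1 (log2 fold change 1.48, adjusted p = 0.0072), Egr3 (1.78, adjusted p = 0.031) and Junb (1.41, adjusted p = 0.037), and for each all Nelfb-/- libraries lay above all CTL libraries, as for 22.0% of all genes tested. The summed level of the 15 was 828 to 1281 CPM in CTL and 1160 to 1868 CPM in Nelfb-/- libraries. Fos was at 24.0, 36.5 and 59.5 CPM in CTL libraries and at 54.7, 40.7 and 41.8 CPM in Nelfb-/- libraries, and Egr1 at 151, 141 and 290 CPM against 225, 203 and 202 CPM. Both overlapped between groups, and neither passed the test (adjusted p = 0.60 and 0.68, limma). Their part in the heat shock results was not tested.

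Over the 6 libraries, the log2 values of Hspa1a plus Hspa1b were most like those of 5 genes outside the 10. These were Gm8116, a processed pseudogene (Pearson r 0.996), Ddx31, an RNA helicase (0.994), the splicing factor Srsf7 (0.993), the muscle gene Smyd1 (0.993) and Jph4, a junctophilin (0.992). With 2 groups of 3 libraries, any gene whose groups are apart and even within groups gives a high r, and all 5 had no overlap between groups, as had 38.1% of all genes tested. Smyd1 was at 0.090, 0.187 and 0.170 CPM in CTL libraries and at 0.996, 0.757 and 0.857 CPM in Nelfb-/- libraries. Among the 10 genes themselves, the highest r was 0.98 for Dnajb1 with Hspb1, and the lowest was -0.86 for Hsp90ab1 with Hspb1.

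**Figure D5:**
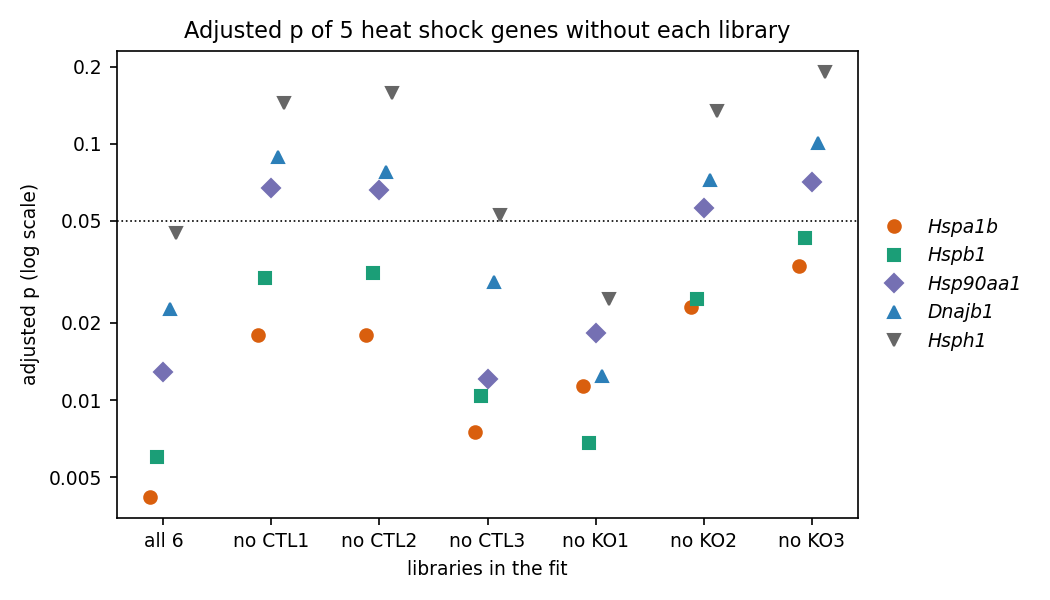
Adjusted p (log axis, limma) of the 5 heat shock genes that rose, with all 6 libraries and with each library left out in turn, the dotted line marking 0.05. Hspa1b and Hspb1 stay below the line in all 7 fits, Hsp90aa1 and Dnajb1 are above it without CTL1, CTL2, KO2 or KO3, and Hsph1 is above it in all but the fit with all 6 libraries and the fit without KO1.

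Hspa1b and Hspb1 kept an adjusted p of at most 0.05 under all 16 alternatives run for each, leaving out each library among them. Their highest adjusted p was 0.033 and 0.043, both without KO3, and their log2 fold changes lay between 1.56 and 2.14 and between 1.49 and 1.84. The 1.56 came from the alternative that summed Hspa1b with Hspa1a, and the lowest value of Hspa1b alone was 1.75, without CTL1. CTL1 and CTL2 were close to each other (r 0.985 over log2 values of all genes tested), as were KO2 and KO3 (0.988), while CTL3 and KO1 stood apart within their groups. Across groups, CTL3 was most like KO2 (r 0.924) and KO1 most like CTL1 (0.908). Cycling cell markers summed to 66.7, 64.6 and 317 CPM in CTL1 to CTL3 and to 68.8, 358 and 307 CPM in KO1 to KO3. This split was uneven between the groups, and its part in the results was not tested. Without CTL3, 2479 of all genes passed both limits, and without KO3, 426 did, against 1824 with all 6 libraries.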

How the data were processed

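RNA-seq libraries of 3 CTL and 3 Nelfb-/- cultures were analysed from 1 table of values. The submitters' processing notes name STAR 2.7, Partek 9.0.20.0202 and mm10. How reads that match several genes were counted, and whether strand was used, is not given in the sources used here. The values deposited by the authors are CPM with an offset of 0.0001, and after it was subtracted each column summed to 1e+06. No gene was listed whose highest value was well under 10 reads. From the lowest steps, depth was 17.2 to 29.4 M reads (M, 1e+06). Of values up to 20 reads, 69.9% to 72.8% were whole within 0.02, so that no count-based test was run. A floor of 3 reads is 0.102 to 0.175 CPM, and all counting limits cover counting error only.

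The offset was subtracted, and CPM was scaled to 22.3 M reads. Genes averaging 10 reads or more were tested on log2(value + 1) with limma 3.58.1 (R 4.3.3, abundance trend), with Benjamini-Hochberg adjustment over all 16251 genes. Fold changes are on that scale, which understates the change of low genes. A gene passed the test at an adjusted p of at most 0.05, and both limits, those of the study's methods, if it also changed at least 2-fold. The script was tested on simulated data. Ratios were tested with exact two-sided permutation tests, 5 in all, each at the smallest p of 0.1 and so at 0.1 after Benjamini-Hochberg adjustment.

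Gene IDs and transcript lengths (the principal transcript) came from GENCODE vM21, positions from the deposited table. Close copies are genes that hold at least 5% of a transcript's 50-base words. Promoters are RefSeq windows (GRCm38.p6). The 10 genes and all lists were chosen with earlier results of these data known. Named were all 10 genes, Nelfb, Hspe1, up to 4 genes a list past both limits or the 2 with the lowest p, 7 markers and the 5 genes most like Hspa1a plus Hspa1b. Hspa9, Clpb, Clpp, Retn, Lep, Nr4a1, Egr3 and Junb were named after their values were seen, and so were the genes of the close copies. A gene that the rule names is not reported here.

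Marker lists other than macrophage, skeletal muscle and immediate early genes gave these counts of genes that rose and fell: adipocyte 1 and 1 of 14, preadipocyte or fibroblast 2 and 0 of 11, endothelial 1 and 0 of 6, keratinocyte 2 and 0 of 5, melanocyte 5 and 0 of 6, Schwann cell 3 and 1 of 5, smooth muscle 1 and 0 of 6, and cycling cells 0 and 0 of 6 (limma, also 0 and 0 at an unadjusted p of at most 0.05).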

Additional observations from a re-analysis of the deposited data

How the results depend on the processing

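Leaving out each library in turn gave 2 to 3 heat shock genes past both limits (2 with all), 2 to 5 with an adjusted p of at most 0.05 (5 with all), 0 to 6 other chaperone genes past both limits (2 with all) and 426 to 2479 of all genes (1824 with all). Without the fold limit, the counts were 5 heat shock genes, 15 other chaperone genes and 2566 genes in all. For other chaperone genes, median-of-ratios size factors gave 4, sample quality weights 12 and the replicate block 1. Sample quality weights gave 4513 of all genes. These weights stopped before they converged, so that their calls are of little use. Of calls past both limits, 1232 were higher and 592 lower, and under quantile normalization 1014 and 834. That setting moved the median log2 fold change of all genes from 0.07 to -0.07.

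Across the left-out libraries, log2 fold changes ranged from -0.10 to 0.19 for Hsf1, 0.18 to 0.57 for Hspa1a, 1.75 to 2.11 for Hspa1b, -0.0096 to 0.20 for Hspa8, 0.44 to 0.60 for Hsph1, 0.82 to 0.92 for Hsp90aa1, -0.27 to -0.17 for Hsp90ab1, 0.85 to 1.18 for Dnajb1, 1.49 to 1.84 for Hspb1 and -0.64 to -0.40 for Hspd1. Hsf1 turned to -0.023 under quantile normalization, -0.13 with sample quality weights, -0.034 without CTL replicate 3 and -0.10 without KO replicate 1, and Hspa8 to -0.0096 without CTL replicate 3 and to -0.0040 without KO replicate 2. Hsph1 lost its call at 0.45 under median-of-ratios size factors, 0.46 under quantile normalization, and 0.52 both without a trend and with the replicate block. Hspa1a passed at 0.43 and Hspd1 at -0.42 with sample quality weights, and Hspa1a plus Hspa1b passed at 1.56. The cause of these changes was not tested. No ratio changed direction when a library was left out. Its group difference on the log2 scale then ranged from 1.21 to 1.66 for Hspa1a plus Hspa1b to Hspa8. The range was 0.74 to 1.06 for Dnajb1 to Hspa8 and 1.04 to 1.14 for Hsp90aa1 to Hsp90ab1. It was -0.32 to -0.22 for Hspd1 to Hspe1 and 1.52 to 1.70 for Hspa1b to Hspa1a.

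Whether the replicate numbers pair the libraries is not stated in the labels. Same-numbered deviations correlated at 0.52, -0.39 and 0.52, and not every library correlated best with its own number. Differently numbered libraries correlated too, such as CTL3 with KO2 (0.54) and CTL2 with KO1 (0.48), so that these values cannot decide it. With the replicate block, 2175 of all genes passed both limits, and of the 10 heat shock genes only the call of Hsph1 changed. Summing member genes with close copies was chosen after the data were seen.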
